A study of Mus musculus with 12 samples.

Results

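The nuclear genes for subunits of the 5 oxidative phosphorylation complexes were followed through mouse livers with and without interleukin-18. They were taken as the non-control probes whose gene name on the array starts with Nduf, Uqcr, Atp5, Cox4, Cox5, Cox6, Cox7 or Cox8, or is Sdha, Sdhb, Sdhc or Sdhd. Of 55681 probes outside the controls, 126 met this rule and named 90 of the 36091 genes or transcripts on the array. The names also bring in 7 assembly or associated factors (Cox7a2l, Dmac2, Dmac2l, Ndufaf1, Ndufaf2, Ndufaf3 and Ndufaf4) and 1 gene, Emc8, listed on the array as Cox4nb, whose product belongs to a membrane complex of the endoplasmic reticulum.

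The 12 arrays each measured RNA from a whole liver of a BALB/c mouse that had received no treatment. They fall into 4 groups of 3: wild type at 6 weeks, wild type at 12 weeks, Il18 knockout at 6 weeks and Il18 knockout at 12 weeks. The labels call the arrays of a group biological replicates without saying that each came from a separate animal, so p-values measure only the spread between these samples, which may be technical. The labels name neither the deleted part of Il18 nor the cells in which it was deleted.

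Oxidative phosphorylation takes place in the inner mitochondrial membrane. Complexes I and II pass electrons from NADH and succinate to coenzyme Q, complex III passes them on to cytochrome c, and complex IV hands them to oxygen, while complexes I, III and IV pump protons that drive ATP synthesis by complex V. Most subunits are encoded in the nucleus and imported, a few are encoded in mitochondrial DNA, and separate assembly factors join them without staying in the finished complex. Hepatocytes are rich in mitochondria and draw on this system for gluconeogenesis and urea synthesis.

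The genes on which the results turn are 3 assembly or associated factors and 1 subunit of complex III, and their sequences are shown first. The probes are given as 30 of their 60 bases, 5′ to 3′, because they fix what each value measured. Positions of probes are on mm9, as in the array files.
Ndufaf4, brighter probe, chr4:24830284-24830343, plus strand: catacttgcctcgagattccacgggaaaag
Ndufaf4, dimmer probe, chr4:24829194-24829253, plus strand: atacaagttcctgtgagttgagggccataa
Dmac2, chr7:26410510-26410569, plus strand: tgaacccaatacactgtggaaatgtgtgat
Dmac2l, chr12:70842700-70842759, plus strand: aggcttagtcaacttgaaaatttacgaaaa
Uqcrc1, chr9:108851008-108851487, plus strand, spanning an intron: gacatttgctccaagtacttttatgaccaa

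Promoters of these genes are known to carry sites for nuclear respiratory factor 1, for the ETS factor GABP and for YY1, so these letters were searched in RefSeq promoters on GRCm38.p6, over 300 bases from 250 before to 50 after each start and on both strands. An entry was found for 74 of the members. CGCATGCG, the core of the nuclear respiratory factor 1 site, was in 10 of 74 members (13.5%) and in 2.07% of all 27025 genes with an entry. CGGAAG, the ETS letters, was in 30 members (40.5%) and in 18.8% of all genes, and AAGATGGC, the YY1 letters, was in 11 members (14.9%) and in 3.19% of all genes. The 10 with the first motif were Atp5g2, Atp5j, Atp5k, Atp5l, Cox6a1, Ndufa8, Ndufa11, Ndufaf4, Uqcr11 and Uqcrc1. A match is a description of these letters and not a site shown to be bound. Of the members past the threshold below, only Ndufaf4 and Uqcrc1 held CGCATGCG. Sdhd and Ndufaf1 held only the ETS letters, and Dmac2 only the YY1 letters. Dmac2l, Cox7a1, Ndufab1, Ndufb3 and Ndufv3 held none of the letters searched. The 250 bases before the start of Ndufaf4 and of Uqcrc1 follow, chosen for that match, with matches to CGCATGCG and CGGAAG in capitals. The window of Ndufaf4 lies within the annotated span of a predicted gene, Gm46848, and the match in Uqcrc1 lies after the start, outside the stretch shown.
Ndufaf4, chr4:24897833-24898082, plus strand: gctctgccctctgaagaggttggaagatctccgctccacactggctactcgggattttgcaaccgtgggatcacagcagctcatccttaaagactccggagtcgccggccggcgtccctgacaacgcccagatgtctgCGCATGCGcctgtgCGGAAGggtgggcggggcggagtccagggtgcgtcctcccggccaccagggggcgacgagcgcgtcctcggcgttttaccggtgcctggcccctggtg
Uqcrc1, chr9:108936398-108936647, plus strand: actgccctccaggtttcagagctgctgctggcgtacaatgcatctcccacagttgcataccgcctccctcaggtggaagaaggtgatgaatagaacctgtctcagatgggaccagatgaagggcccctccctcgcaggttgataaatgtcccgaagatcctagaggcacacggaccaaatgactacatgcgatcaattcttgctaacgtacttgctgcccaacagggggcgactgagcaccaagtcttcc

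The labels were checked on Il18 and on liver markers. The Il18 level, as log2 of the signal minus the array's 75th percentile, was 2.15 to 2.49 on the 6 wild-type arrays and -0.37 to 0.04 on the 6 knockout arrays. Its probe was still well above background on all 12 arrays, and whether it lies in the deleted part is not known from the labels. All 5 hepatocyte markers (Alb, Apoa1, Ttr, Serpina1a and Tat) were well above background, and their summed signal, as a multiple of the 75th percentile, was 3298 to 4156 over the arrays. Erythroid markers summed to 102 to 153 in wild type and 168 to 277 in knockout livers, and T and NK cell markers to 61.0 to 101 and 36.5 to 61.2. The part of these cells in the differences below was not tested. In whole tissue, fewer cells of a type and less RNA per cell cannot be told apart. The arrays lay on 2 slides, with wild type at 6 weeks and replicate 1 of wild type at 12 weeks on slide 1 and all others on slide 2. At 6 weeks slide and genotype therefore cannot be told apart, except through that 1 array. The same holds for slide and age in wild type, while all knockout arrays lay on slide 2.

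Of the 90 genes, 88 entered the test, for which at least 1 group needed all 3 of its arrays well above background. The other two, Cox8c and Cox7b2, are isoforms known from testis, and neither was well above background in this way. Among the 88, 36 belonged to complex I (7 of the catalytic core and 29 accessory), 4 to complex II, 8 to complex III, 11 to complex IV in its widely expressed form and 15 to complex V. A further 6 were isoforms known mainly from other tissues or conditions, 7 were the assembly or associated factors and 1 was Emc8. All but 1 of the 88, Cox8b, were well above background on every array, and none was saturated.

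The subunit genes differed little between genotypes. At 6 weeks 2 of 88 members were higher and 4 lower in knockout livers (limma, Benjamini-Hochberg adjusted p under 0.05), where 21.1% of all 22110 genes tested were called, 11.7% higher and 9.36% lower. At 12 weeks 2 were higher and 1 lower, where 8.2% of all genes were called, 5.64% higher and 2.56% lower. The 2 comparisons share no array, but each shares its arrays with the comparisons of age. Below, rose or fell at 1 age, or in the mean of both, means higher or lower in knockout than in wild-type livers. The absolute difference was under 0.2 on the log2 scale for 75 of 88 members at 6 weeks (85.2%, against 44.0% of all genes) and for 75 of 88 at 12 weeks (85.2%, against 53.8%). Among the 3494 genes with a mean level of at least 4 the shares were 56.4% and 74.2%. Members were also measured more tightly than all genes, with a median standard error of 0.08 against 0.14, but those 3494 genes came close, at 0.09. Of those 3494 genes, 24.4% were called at 6 weeks and 5.5% at 12 weeks, against 6.82% and 3.41% of the members.

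**Figure D1:**
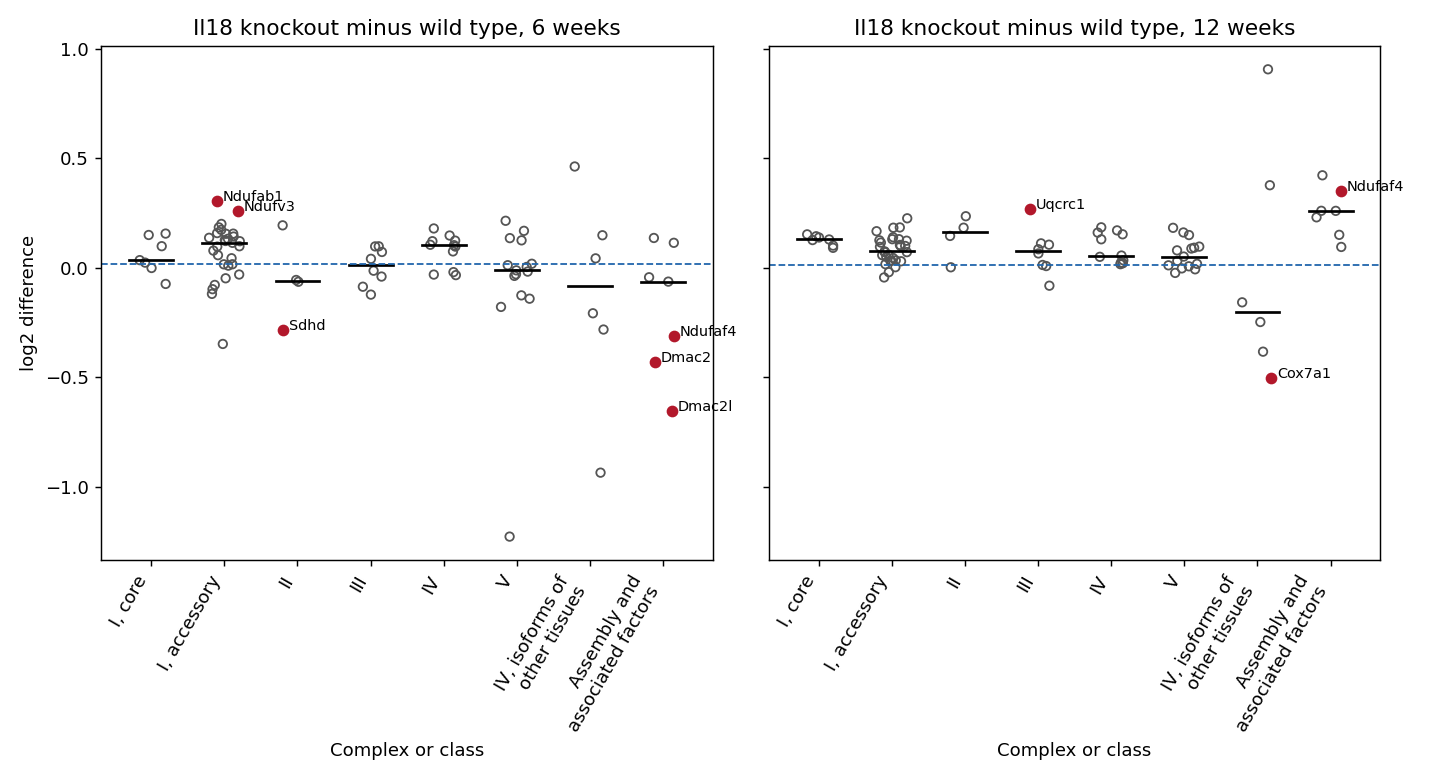
Knockout minus wild type on the log2 scale for each member gene by complex, at 6 and 12 weeks; filled red points passed an adjusted p of 0.05 (limma), black bars are class medians and the blue dashed line is the median of all genes tested. Most members lie within 0.2 of 0. The 3 assembly or associated factors that passed at 6 weeks lie below 0, and the 1 that passed at 12 weeks lies above 0.

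The direction of these small differences was more one-sided at 12 weeks than at 6 weeks. At 12 weeks 77 of 88 members were higher in the knockout mean, where 52.0% of all genes were, and the median difference was 0.09, against 0.01 for all genes. At 6 weeks 53 of 88 (60.2%) were higher and the median was 0.04, against 0.02. These counts rest on the brightest probe of each gene. Dimmer probes of some members had the other sign, as for Uqcrq, Ndufa5, Ndufb6 and Cox7c at 6 weeks. Among genes with a mean level of at least 4, 55.9% were higher at 12 weeks, with a median of 0.02, and 62.1% at 6 weeks, with a median of 0.07. Per array, the median deviation of the members at 12 weeks was -0.14, -0.07 and 0.02 in wild type and 0.09, -0.05 and 0.03 in knockout livers. These arrays overlapped between genotypes, and the SD of this median within groups was 0.06. Among the arrays of slide 2 alone, 64 of 88 members were higher at 12 weeks, with a median of 0.06.

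**Figure D2:**
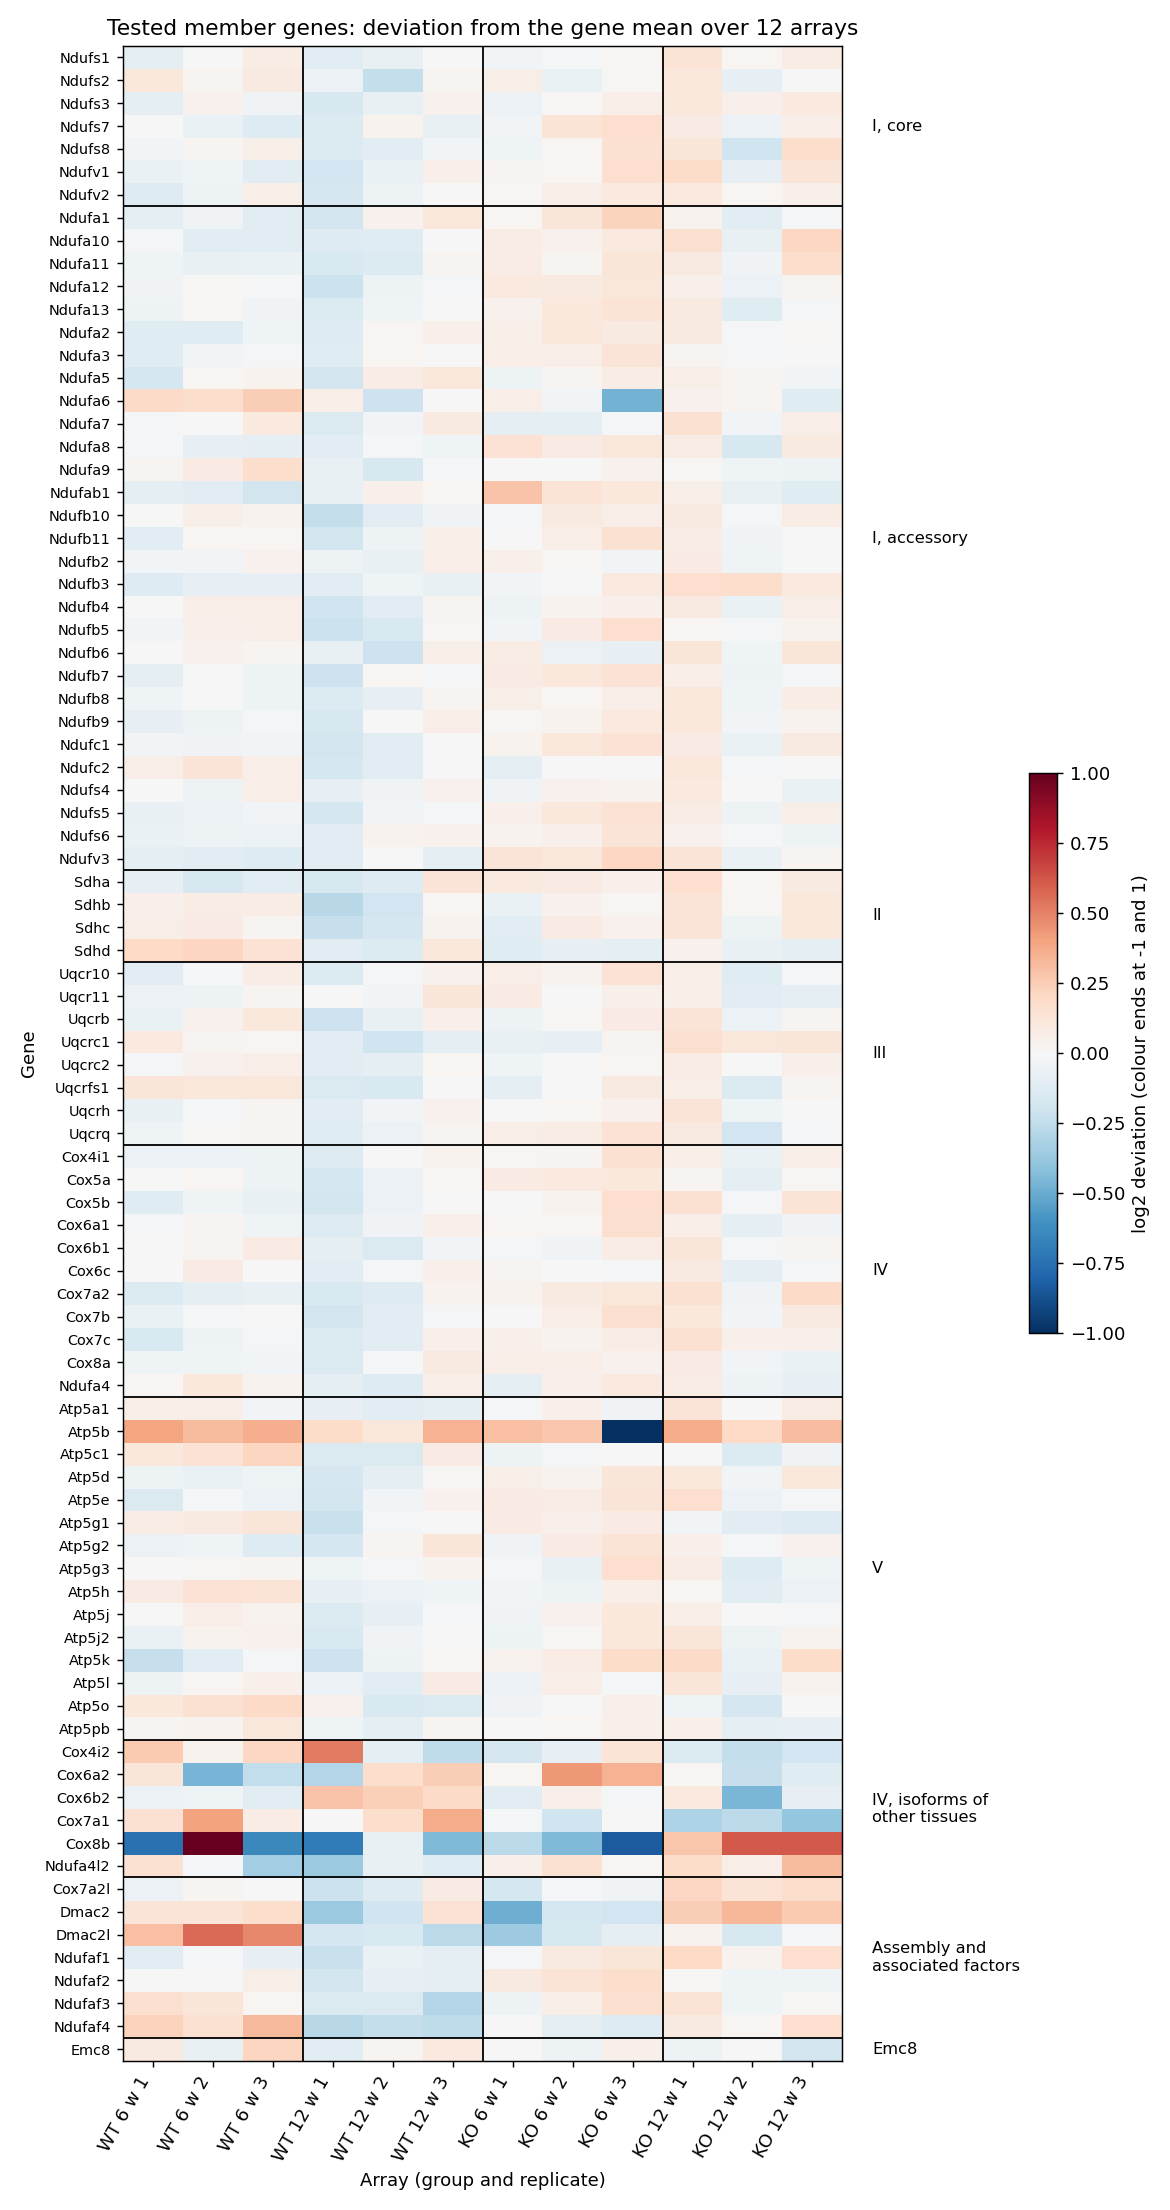
Level of each tested member gene (lines) on each of the 12 arrays (columns, by group), as its log2 deviation from the gene's mean over the arrays, with genes ordered by complex. Blocks of subunits show little contrast between groups, while the assembly and associated factors, some isoforms and single arrays of Atp5b and Cox8b stand out.

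Complex I takes electrons from NADH and is the largest of the complexes. Its 7 core subunits, which carry the flavin and the iron-sulfur clusters, had a median difference of 0.03 at 6 weeks and 0.13 at 12 weeks. All 7 were higher in the knockout mean at 12 weeks, and no core subunit passed the test in any of the 6 comparisons, nor reached an unadjusted limma p under 0.05. The 29 accessory subunits had medians of 0.11 and 0.07, and 27 of 29 were higher at 12 weeks, as were 77 of all 88 members. The accessory subunit with the brightest probe, Ndufa13, differed by 0.12 and 0.04.

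At 6 weeks 2 accessory subunits rose. Ndufab1, the mitochondrial acyl carrier protein that also serves fatty acid synthesis, had levels of 2.43, 2.42 and 2.34 in wild type and 2.81, 2.66 and 2.63 in knockout livers. The groups did not overlap, and the difference was 0.30 ± 0.08 (SE, n = 3 per group; adjusted p = 0.0246, limma). At 12 weeks Ndufab1 stood at 2.45, 2.58 and 2.54 against 2.58, 2.45 and 2.40, with the groups overlapping. Ndufv3, an accessory subunit of the NADH-binding module, stood at 7.50, 7.49 and 7.47 against 7.73, 7.71 and 7.80 at 6 weeks. The knockout arrays were again all higher, by 0.26 ± 0.07 (adjusted p = 0.0304, limma), while a second, dimmer probe gave 0.21 (adjusted p = 0.174). The differences were 0.19 with slide as a block for both Ndufab1 and Ndufv3 (adjusted p = 0.495 and 0.451, limma). Leaving out 1 array, the 6-week call was kept in 1 of 6 fits for Ndufab1 and in 0 of 6 for Ndufv3.

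In the mean of both ages 3 members were higher and 2 lower in knockout livers, where 20.6% of all genes were called, 12.7% higher and 7.86% lower. Besides Ndufv3 (0.18, adjusted p = 0.0338, limma; 0.061, adjusted p = 0.576, on its second probe), the higher ones were Ndufb3 and Ndufaf1. Ndufb3, an accessory subunit of the membrane arm, had levels of 5.95 to 6.03 over the 6 wild-type arrays and 6.04 to 6.25 over the 6 knockout arrays, which did not overlap. Its mean difference was 0.17 ± 0.05 (adjusted p = 0.027, limma). Ndufaf1, which helps assemble the membrane arm, ran from 3.54 to 3.74 in wild type and from 3.75 to 3.95 in knockout livers, a difference of 0.20 ± 0.05 (adjusted p = 0.0306, limma). None of the 88 passed in this mean with slide as a block, and 1 had an unadjusted limma p under 0.05.

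Complex II, succinate dehydrogenase, also acts in the tricarboxylic acid cycle. Its 4 genes differed in direction at 6 weeks, and only Sdhd passed the test there. Sdhd, a membrane anchor of the complex, had levels of 7.15, 7.16 and 7.09 in wild type and 6.82, 6.87 and 6.86 in knockout livers at 6 weeks. The knockout arrays were all lower, and Sdhd fell by 0.28 ± 0.08 (adjusted p = 0.0332, limma). At 12 weeks the levels were 6.84, 6.81 and 7.06 against 6.99, 6.87 and 6.85, which overlapped, with a difference of 0.00. The Sdhd probe, at chr9:50404630-50404689 on mm9, lies 14.9 kb from the Il18 probe, so at 6 weeks it is the called member closest to the deleted gene. The call was lost without any 1 of the 6 arrays (adjusted p from 0.063 to 0.096, limma) and with slide as a block (-0.38, adjusted p = 0.181).

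Other members within 10 Mb of Il18 on chromosome 9 were Atp5l, with 6 probes of which none passed in either genotype comparison, and Cox5a, with differences of 0.10 and 0.06. Sdha, the flavoprotein of complex II, was 0.19 higher at 6 weeks and 0.14 at 12 weeks, without passing (mean of both ages 0.17, adjusted p = 0.0725, limma). Sdhb, the iron-sulfur subunit, did not pass on its brighter probe at 12 weeks (0.23, adjusted p = 0.118). Its second probe did, at 0.30 (adjusted p = 0.037, limma), in a fit of all probes in which the brighter probe had 0.126. Probes of 2 other members also disagreed in call: Atp5c1 at 6 weeks (-0.18 and -0.28, the second with adjusted p = 0.038) and Ndufb5 at 12 weeks (0.13 and 0.26, the second with adjusted p = 0.048).

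Complex III passes electrons from coenzyme Q to cytochrome c, and 1 of its 8 genes passed at 12 weeks. Uqcrc1, a core protein on the matrix side, had levels of 4.73, 4.65 and 4.75 in wild type and 5.01, 4.95 and 4.97 in knockout livers at 12 weeks. The knockout arrays were all higher, by 0.27 ± 0.07 (1.2-fold, adjusted p = 0.0379, limma). At 6 weeks the order was the opposite without passing, at 4.94, 4.87 and 4.85 against 4.77, 4.76 and 4.87 (-0.09, adjusted p = 0.366). The change of the genotype difference from 6 to 12 weeks was 0.35 ± 0.09 (adjusted p = 0.0396, limma). It was lost in 9 of 12 fits that left out 1 array, and the 12-week call was kept in only 1 of 6 such fits. Within slide 2 alone the 12-week difference was 0.28 (adjusted p = 0.105). Uqcrq, the complex III member with the brightest probe, differed by 0.10 and 0.01. Its second probe gave -0.21 and -0.14, without passing (adjusted p = 0.179 and 0.473, limma).

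Complex IV, cytochrome c oxidase, showed small differences in 1 direction at 12 weeks and none past the threshold. Its 11 widely expressed subunits had medians of 0.10 at 6 weeks and 0.06 at 12 weeks. All 11 were higher in the knockout mean at 12 weeks, as were 77 of all 88 members. None of them had an unadjusted limma p under 0.05 at either age. The probe that stood for Cox5b (0.15 and 0.17) maps to chromosome 15, while the gene lies on chromosome 1. A second Cox5b probe, on chromosome 1, gave -0.01 and 0.14. Cox4i1 differed by 0.12 and 0.05, Cox6a1 by 0.07 and 0.02, Cox7b by 0.10 and 0.16, Cox8a by 0.10 and 0.02, and Cox6b1 by -0.03 and 0.13. Cox7a2, the form of subunit 7a known from liver, was 0.18 higher at both ages (mean of both ages 0.18, adjusted p = 0.0525, limma).

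The heart and muscle form of the same subunit, Cox7a1, fell. At 12 weeks its levels were 2.04, 2.22 and 2.41 in wild type and 1.73, 1.78 and 1.65 in knockout livers. The groups did not overlap, and Cox7a1 fell by 0.50 ± 0.12 (1.42-fold, adjusted p = 0.029, limma). At 6 weeks the levels were 2.20, 2.44 and 2.12 against 2.03, 1.84 and 2.04, also lower in each knockout array, with a difference of -0.28 (adjusted p = 0.107). In the mean of both ages it fell by 0.39 ± 0.08 (adjusted p = 0.0111, limma). Leaving out 1 array, the 12-week call was kept only without wild-type replicate 1, the one array of these 6 on slide 1, and was lost in the other 5 fits (adjusted p from 0.057 to 0.097, limma). Within slide 2 alone the 12-week difference was -0.59 (adjusted p = 0.035). Of 10 muscle markers, 4 (Actc1, Ckm, Myh1 and Myl1) were well above background on no array, and the list summed to 0.689 to 0.866 in wild type and 0.582 to 0.729 in knockout livers at 12 weeks. Its part in the fall of Cox7a1 was not tested.

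The other isoforms of other tissues did not pass at either age. Cox4i2, the lung form of subunit 4, differed by -0.21 and -0.25. Cox6a2, the muscle form of subunit 6a, differed by 0.46 (adjusted p = 0.0981, limma) and -0.16, and Cox6b2, the testis form of subunit 6b, by 0.04 and -0.38 (adjusted p = 0.0809). Ndufa4l2, a hypoxia-induced relative of Ndufa4, differed by 0.15 and 0.38 (adjusted p = 0.11), while Ndufa4 differed by -0.03 and 0.03.

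**Figure D3:**
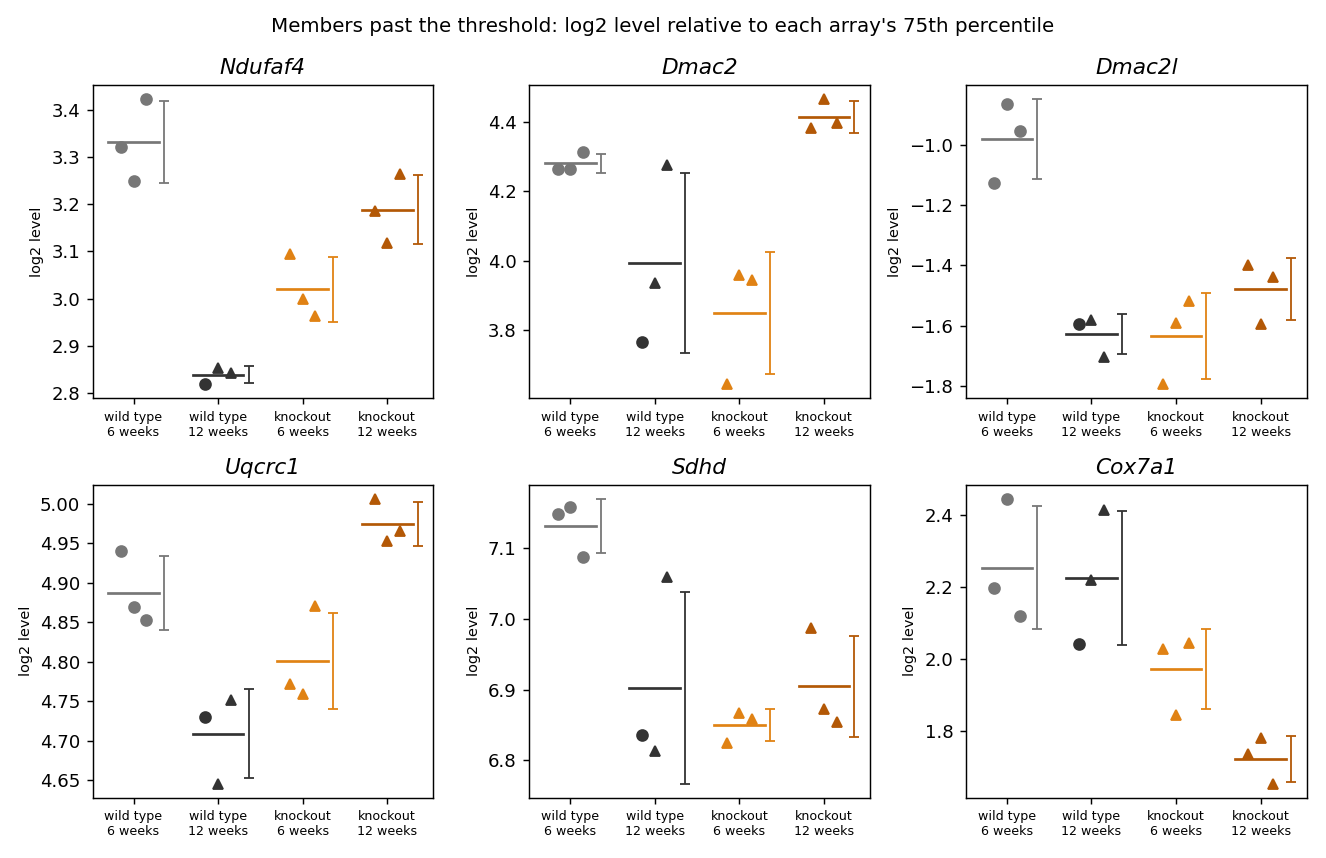
Levels of member genes that passed the test, by group, as log2 of the signal relative to the array's 75th percentile; each point is 1 array (circles slide 1, triangles slide 2), lines are group means and error bars the SD of 3 arrays. Ndufaf4 and Dmac2 were lower in knockout than in wild-type livers at 6 weeks, and higher in the knockout mean at 12 weeks.

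Complex V, the ATP synthase, had no gene past the threshold at either age, and 1 of its 15 genes had an unadjusted limma p under 0.05 at 6 weeks and 1 at 12 weeks. Its median was -0.01 at 6 weeks and 0.05 at 12 weeks. The mean difference of Atp5b, the catalytic beta subunit, rested on 1 array. Its levels were 8.80, 8.72 and 8.77 in wild type and 8.70, 8.67 and 5.24 in knockout livers at 6 weeks, which gave -1.23 ± 0.72 (adjusted p = 0.243, limma). Without knockout replicate 3 the difference was -0.08 ± 0.09 (adjusted p = 0.606). At 12 weeks the levels were 8.59, 8.52 and 8.75 against 8.78, 8.61 and 8.71, and these overlapped. On the array with the low value, 7 of the 146 spots compared in the same spot column (4.79%) lay more than 2 log2 units below the median of the other arrays. Elsewhere on that array it was 0.281% of the 24196 spots compared. The column was taken because the Atp5b spot lies in it, and the cause of the low value was not tested. Atp5g3, a subunit c gene, differed by 0.01 and -0.02.

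A value from 1 array also set the result for Cox8b, the heart and brown fat form of subunit 8. Its levels at 6 weeks were -4.52, -1.13 and -4.42 in wild type and -4.04, -4.22 and -4.61 in knockout livers. The difference of -0.94 ± 0.72 (adjusted p = 0.369, limma) turned to 0.18 without wild-type replicate 2. On the same array Ucp1, the uncoupling protein of brown fat, stood at -0.74, against -6.75 to -5.20 on the others. Cidea, another brown fat marker, stood at -1.21, against -6.00 to -2.93. Of the 5 brown fat markers, Dio2 was well above background on no array, and the list summed to 3.18 to 5.91, 37.6 to 60.2, 121 to 144 and 22 to 37.0 in wild type at 6 and 12 weeks and knockout at 6 and 12 weeks. Nearly all of the higher sums came from Elovl3, which hepatocytes also express. The part of brown fat in the Cox8b values was not tested. At 12 weeks Cox8b was at -4.47, -3.85 and -4.22 in wild type and at -3.50, -3.16 and -3.16 in knockout livers. The difference of 0.91 ± 0.72 between the means did not pass (adjusted p = 0.474, limma). This SE was estimated over the 4 groups, so it takes in the high value of wild-type replicate 2 at 6 weeks. Cox8b was well above background on 1, 2, 2 and 3 arrays of wild type at 6 and 12 weeks and knockout at 6 and 12 weeks. It entered the test only through the last group, where it was highest but for the 1 array named above, so the differences rest partly on values near background.

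**Figure D4:**
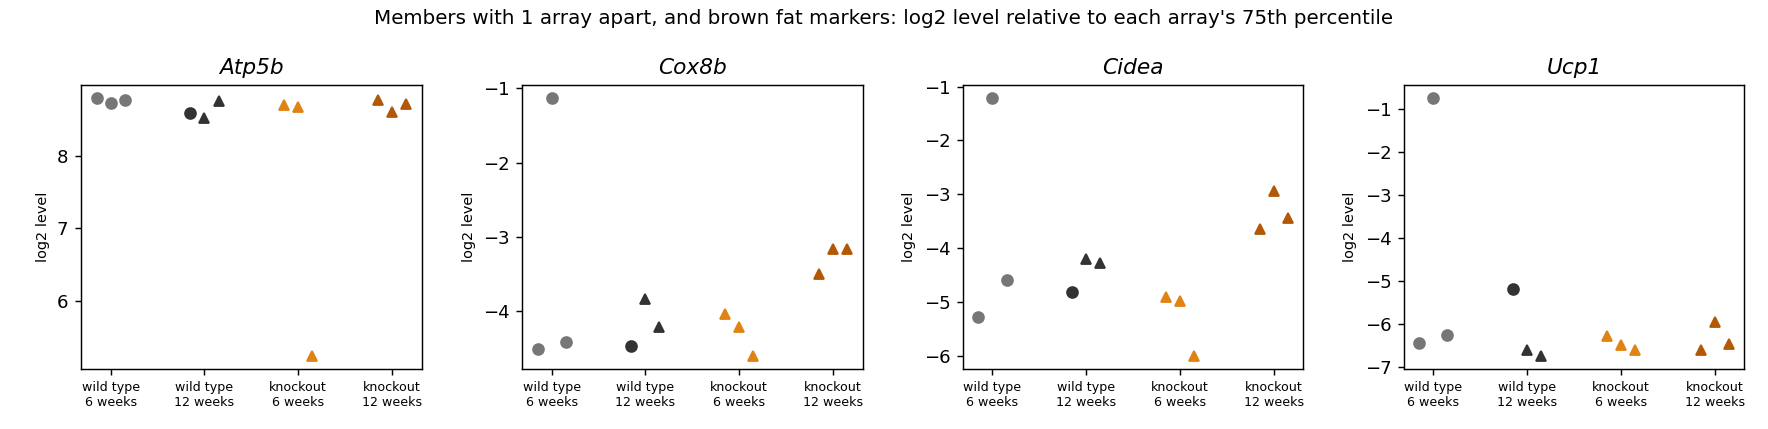
Levels of Atp5b, Cox8b, Ucp1 and Cidea on each array by group, as log2 of the signal relative to the array's 75th percentile (circles slide 1, triangles slide 2). Atp5b was low on knockout replicate 3 at 6 weeks, and Cox8b, Ucp1 and Cidea were high together on wild-type replicate 2 at 6 weeks.

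The assembly or associated factors, which build or join the complexes, held 3 of the 6 calls at 6 weeks. Of the 7 factors, 3 were lower in knockout livers at 6 weeks (Ndufaf4, Dmac2 and Dmac2l), where 21.1% of all genes were called and 9.36% were lower, with a median over the 7 of -0.06. At 12 weeks 1 was higher (Ndufaf4), where 8.2% of all genes were called and 5.64% were higher, and the median was 0.26. The change of the genotype difference from 6 to 12 weeks passed for 4 of 88 members, all in the positive direction, where 10.3% of all genes were called, 5.58% positive and 4.76% negative. Besides Uqcrc1 they were Ndufaf4, Dmac2 and Dmac2l.

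Ndufaf4 is an assembly factor of complex I that acts on the matrix arm. Its levels were 3.32, 3.25 and 3.42 in wild type and 3.1, 3.00 and 2.96 in knockout livers at 6 weeks, and 2.82, 2.85 and 2.84 against 3.18, 3.12 and 3.26 at 12 weeks. The groups did not overlap at either age, and their order was opposite. The knockout level was 0.31 ± 0.07 below wild type at 6 weeks (1.24-fold, adjusted p = 0.0166, limma). It was 0.35 ± 0.07 above wild type at 12 weeks (1.27-fold, adjusted p = 0.0207), a change in this difference of 0.66 ± 0.10 (adjusted p = 0.0042). The dimmer probe gave -0.49, 0.44 and 0.93, each past the threshold. Blocking on slide gave -0.34 (adjusted p = 0.205), 0.34 (adjusted p = 0.043) and 0.68 (adjusted p = 0.016), so the 6-week call was lost in that fit. Within slide 2 alone the 12-week difference was 0.34 and did not pass (adjusted p = 0.073, limma). The 6-week call was also lost without wild-type replicate 3 or knockout replicate 2 or 3 (adjusted p from 0.056 to 0.061, limma), and the 12-week call without knockout replicate 1 or 3 (0.066 and 0.081).

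Dmac2, listed on the array as Atp5sl, takes part in building the membrane arm of complex I. Its levels were 4.27, 4.26 and 4.31 in wild type and 3.64, 3.96 and 3.94 in knockout livers at 6 weeks. At 12 weeks they were 3.77, 3.94 and 4.27 against 4.38, 4.47 and 4.40. Knockout arrays were all lower at 6 weeks and all higher at 12 weeks. In knockout livers Dmac2 was 0.43 ± 0.13 lower than in wild type at 6 weeks (adjusted p = 0.0382, limma). It was 0.42 ± 0.13 higher at 12 weeks, which did not pass (adjusted p = 0.0705). The 6-week call of Dmac2 was lost without any 1 of the 6 arrays. The change between ages was 0.85 ± 0.18 (adjusted p = 0.0151), and 1.08 (adjusted p = 0.013) with slide as a block, in which the 6-week difference was -0.77 (adjusted p = 0.076).

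Dmac2l, listed as Atp5s and known as a coupling factor associated with ATP synthase, had its highest levels in wild-type livers at 6 weeks. They were -1.13, -0.86 and -0.95 in wild type and -1.79, -1.59 and -1.52 in knockout livers at 6 weeks. At 12 weeks they were -1.60, -1.58 and -1.70 against -1.40, -1.59 and -1.44. The groups were apart at 6 weeks and overlapped at 12 weeks. It fell by 0.65 ± 0.10 with the knockout at 6 weeks (1.57-fold, adjusted p = 0.00231, limma), with 0.15 at 12 weeks (adjusted p = 0.389) and a change of 0.80 ± 0.14 (adjusted p = 0.00678). With slide as a block the 6-week difference was -0.61 (adjusted p = 0.121) and the change 0.77 (adjusted p = 0.034). The change of genotype difference for Ndufaf4, Dmac2 and Dmac2l passed in every alternative fit and in each of the 12 fits that left out 1 array.

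With age, 2 of 88 members fell from 6 to 12 weeks in wild-type livers and none rose, where 9.05% of all genes were called, 4.62% higher and 4.43% lower. Slide and age in wild type can be told apart only through replicate 1 at 12 weeks, which limits all differences with age in that genotype. These were Ndufaf4, by 0.49 ± 0.07 (adjusted p = 0.00425, limma), and Dmac2l, by 0.65 ± 0.10 (adjusted p = 0.00514). In knockout livers Ndufaf4 differed by 0.17 with age, which did not pass. The Dmac2l call was lost with slide as a block (adjusted p = 0.055, limma). All 7 assembly or associated factors had a negative difference, with a median of -0.29, against -0.05 for all members and -0.02 for all genes. In knockout livers 1 member rose from 6 to 12 weeks, where 6.91% of all genes were called, 3.98% higher and 2.93% lower. It was Dmac2, which rose by 0.57 ± 0.13 (1.48-fold, adjusted p = 0.0281, limma). That call was lost without any 1 of the 6 knockout arrays. On its brighter probe no structural subunit passed with age in either genotype. The second probe of Sdhb did in wild type, at -0.30 (adjusted p = 0.036, limma), and for the change between ages, at 0.44 (adjusted p = 0.027), where the brighter one gave -0.22 (adjusted p = 0.150) and 0.30 (adjusted p = 0.155). Of the 74, 10 had an unadjusted limma p under 0.05 in wild-type and 2 in knockout livers.

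At 6 weeks the call counts rested on few arrays and on the slides. Leaving out any 1 of the 6 arrays left 1 to 2 of the 6 member calls, with Dmac2l called each time. With slide as a block no member passed, where 2.66% of all genes did, and 6 members had an unadjusted limma p under 0.05. At 12 weeks leaving out 1 array left 0 to 5 calls, with 0 without knockout replicate 3 (9 with an unadjusted limma p under 0.05) and 5 without wild-type replicate 3.

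The other genes of the pathway were read from lists. Of 12 mitochondrially encoded subunits, which come from mitochondrial DNA rather than the nucleus, CYTB fell by 0.28 at 6 weeks (adjusted p = 0.0488, limma). It was the only 1 called there (8.33%, against 21.1% of all genes). At 12 weeks none passed, against 8.2% of all genes, and 1 had an unadjusted limma p under 0.05. ND5 rose by 0.22 in the mean of both ages (8.33%, against 20.6% of all genes). Of 12 further genes around complex III, cytochrome c and ATP synthase, 2 rose and 2 fell at 6 weeks (33.3%, against 21.1% of all genes, and 1 with slide as a block). At 12 weeks 0 passed, against 8.2% of all genes, and 2 had an unadjusted limma p under 0.05. Those at 6 weeks included Cycs, cytochrome c itself (0.28), Atpif1, the inhibitor of ATP synthase (-0.31), and Tmem70, an ATP synthase assembly factor (-0.35). Of 11 assembly factors of complexes I and II outside the gene-name rule, 1 rose at 12 weeks, Acad9 (0.31). That share of 9.09% lies near the 8.2% of all genes. At 6 weeks none passed, against 21.1% of all genes, and 4 had an unadjusted limma p under 0.05.

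Assembly factors of complex IV, which insert its copper and heme, gave 2 higher and 2 lower of 22 at 6 weeks (18.2%, against 21.1% of all genes) and 4 higher at 12 weeks (18.2%, against 8.2%). With slide as a block 1 passed at 6 weeks and 3 at 12 weeks. Coa6, which helps deliver copper, had levels of 3.92, 3.64 and 3.90 in wild type and 3.24, 3.39 and 3.42 in knockout livers at 6 weeks. At 12 weeks they were 3.16, 3.16 and 3.25 against 3.75, 3.62 and 3.78. As for Ndufaf4, the groups were apart at both ages in opposite order: -0.47 (adjusted p = 0.00795, limma) and 0.53 (adjusted p = 0.0106), a change of 1.0 (adjusted p = 0.00186). Cmc1, a copper-binding assembly protein, fell by 0.50 at 6 weeks, while Coa4 (0.60) and Cox11 (0.43) rose at 12 weeks. In wild-type livers 5 of the 22 fell and 1 rose from 6 to 12 weeks (27.3%, against 9.05% of all genes, 4.62% higher and 4.43% lower). There slide and age can be told apart only through replicate 1 at 12 weeks.

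Regulators of mitochondrial biogenesis are factors that direct transcription of nuclear subunit genes or serve mitochondrial DNA. Of 19 tested, 3 were higher and 5 lower in knockout livers at 6 weeks (42.1%, against 21.1% of all genes) and 4 were higher at 12 weeks (21.1%, against 8.2%). The change between ages was positive for 6 and negative for 1 (36.8%, against 10.3%). Esrra, a nuclear receptor for oxidative metabolism, had levels of 4.49, 4.35 and 4.36 in wild type and 4.10, 4.11 and 3.96 in knockout livers at 6 weeks. At 12 weeks they were 3.58, 3.63 and 3.76 against 4.33, 4.41 and 4.35. The groups were apart in opposite order: Esrra differed by -0.34 (adjusted p = 0.0146, limma) and 0.70 (adjusted p = 0.00178), a change of 1.05 (adjusted p = 0.000725).

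Ppargc1b, a coactivator of that receptor, stood at -0.52, -0.35 and -0.75 in wild type and at -2.19, -2.86 and -1.62 in knockout livers at 6 weeks, all lower. It fell by 1.69 (adjusted p = 0.00291, limma), and at 12 weeks the difference was -0.01. Ppara, a receptor for fatty acids, fell by 0.61 at 6 weeks, and Tfb1m (0.59), Twnk (0.47) and Polg2 (0.47), which serve mitochondrial transcription and DNA replication, rose at 12 weeks. With slide as a block 0 of the 19 regulators passed at 6 weeks (8 with an unadjusted limma p under 0.05) and 2 at 12 weeks, and the change between ages was positive for 3 and negative for 1.

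**Figure D5:**
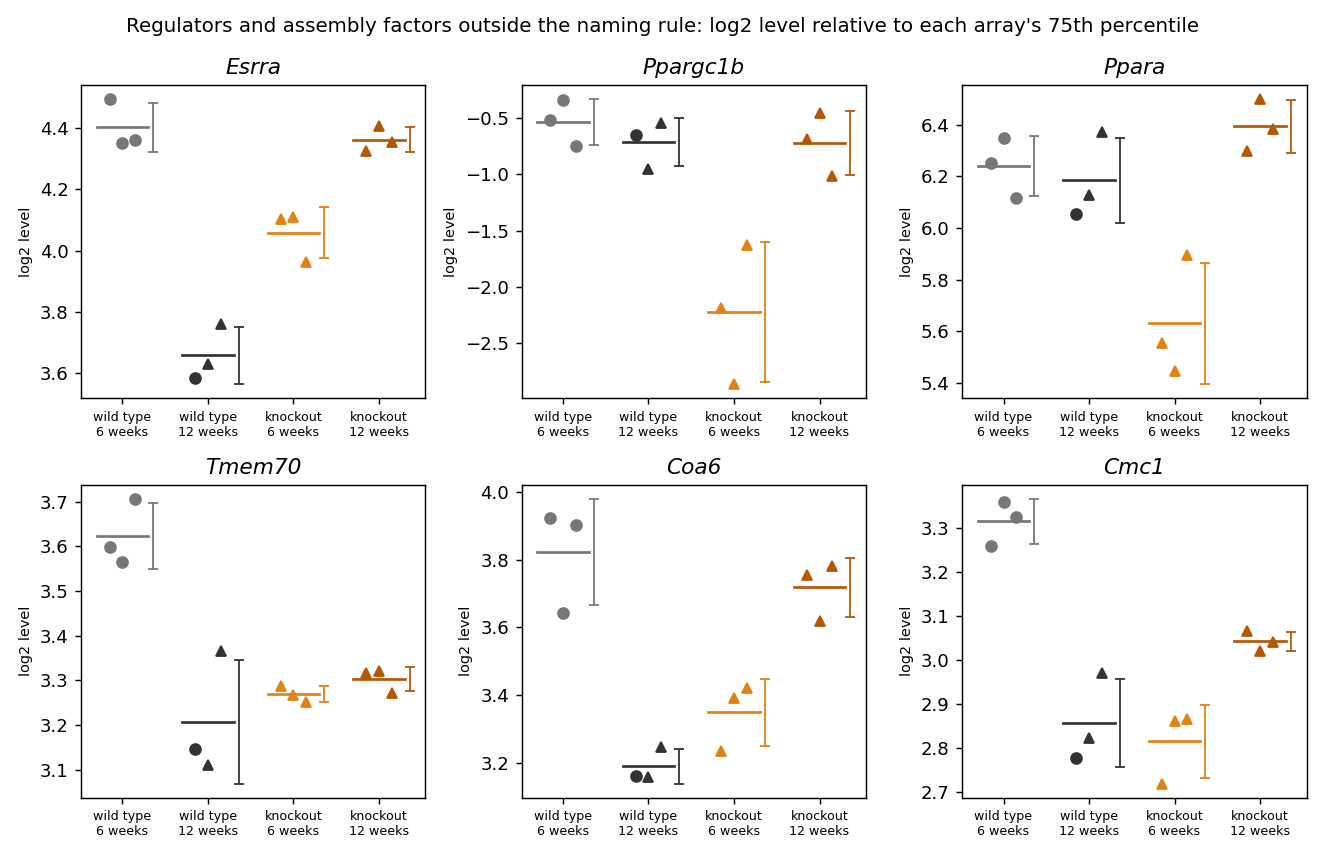
Levels of genes from the pathway lists by group, as log2 of the signal relative to the array's 75th percentile; each point is 1 array (circles slide 1, triangles slide 2), lines are group means and error bars the SD of 3 arrays. Esrra and Coa6 were lower in knockout livers at 6 weeks and higher at 12 weeks.

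Genes that feed the chain were mixed. Among 18 of the tricarboxylic acid cycle, 2 rose and 1 fell at 6 weeks (16.7%, against 21.1% of all genes) and 2 rose at 12 weeks (11.1%, against 8.2%), among them Cs, citrate synthase (0.47 at 6 weeks), and Idh2 (-0.42 at 6 weeks). Blocking on slide, 0 of the 18 passed at 6 weeks (3 with an unadjusted limma p under 0.05) and 1 at 12 weeks. Of 11 for coenzyme Q synthesis, 2 rose and 1 fell at 6 weeks (27.3%, against 21.1%), with Coq8a at 0.81 and Coq10b at -1.52, and 1 rose at 12 weeks (9.09%, against 8.2%). Blocking on slide, 1 of the 11 passed at 6 weeks and 0 at 12 weeks (4 with an unadjusted limma p under 0.05). Of 11 carriers and uncoupling proteins, Slc25a4, an adenine nucleotide carrier, fell by 0.45 at 6 weeks (9.09%, against 21.1% of all genes). At 12 weeks none passed, against 8.2% of all genes, and 2 had an unadjusted limma p under 0.05. Proteins of the mitochondrial ribosome, which makes the mitochondrially encoded subunits, gave 14 higher and 3 lower of 75 at 6 weeks (22.7%, against 21.1% of all genes) and 7 higher at 12 weeks (9.33%, against 8.2%). Both shares lie near those of all genes. Their medians were 0.09 and 0.11. Blocking on slide, 0 of the 75 passed at 6 weeks (4 with an unadjusted limma p under 0.05) and 4 at 12 weeks.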

How the data were processed

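The authors quantified each 1-colour array with Agilent Feature Extraction 10.7.3.1, per the file headers, and deposited processed spot intensity values after background subtraction, not scaled between arrays. Control and outlier spots were left out. Levels are log2 intensity minus each array's 75th percentile, which was 349 to 420. Testing needed at least 1 group with a probe well above background on its 3 arrays, and the brightest probe stood for a gene. Group means of all 12 arrays were fitted in R 4.3.3 by limma 3.58.1 (lmFit, eBayes, 8 residual degrees of freedom), with p-values Benjamini-Hochberg adjusted over 22110 genes. The fit was tested on simulated data. Second probes of a gene were read from a separate limma fit of all 29791 probes tested, with p-values adjusted over those probes. Symbols were updated through RefSeq accessions, which renamed 4 members.

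Named genes are members past the threshold, the brightest probe of each complex, isoforms, chromosome 9 neighbours of Il18, probes that disagree, and up to 3 called genes per list. The members and lists were chosen with earlier results of these data known. Same replicate numbers correlated over 0.1 in 2 of 18 pairs, both between wild type at 6 and at 12 weeks. Arrays with different numbers were not compared, so this cannot decide whether numbers pair the arrays. The main fit used no pairing. Alternatives covered background correction, scaling, filters, probe choice, slide, replicate number, variance model and leaving out arrays.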

Additional observations from a re-analysis of the deposited data

Results flagged for a closer look

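For 4 members the knockout minus wild-type difference itself differed between 6 and 12 weeks, by a test of that change over all genes (limma, Benjamini-Hochberg). The change was 0.66 for Ndufaf4, 0.85 for Dmac2, 0.80 for Dmac2l and 0.35 for Uqcrc1, on the log2 scale. At 6 weeks the wild-type arrays all lie on slide 1, and the part of slide in these changes was tested only through 1 array of wild type at 12 weeks: with slide as a block the change stayed past the threshold for 3 of the 88 members.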

How the results depend on the processing

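The number of members called moved with the processing while the direction of the median mostly did not. At 6 weeks (6 called) it was 2 with no filter, 0 with slide as a fixed block and 1 with slide as a random block. At 12 weeks (3) it was 5 after normexp, 6 with a trended, robust variance and 1 within slide 2. It was 0 with no filter (12 with an unadjusted limma p under 0.05) and with only the groups compared (9). With every probe as a feature 6 probes passed there, among them each probe of Ndufaf4. In the mean of both ages (5) it was 1 with no filter, 0 and 1 with slide as a fixed and a random block, and 12 with the trended variance. With age in wild type (2) it was 5 after normexp, 4 with the trended variance, and 1 with slide as a fixed block or only the groups compared. With every probe as a feature 4 probes passed with age in wild type, again with each probe of Ndufaf4. In knockout (1) it was 0 with no filter (4 with an unadjusted p under 0.05) and 2 with only the groups compared. The change between ages gave 3 to 6 calls under every setting, counting probes where every probe was a feature.

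Replicate numbers as a block gave 4 calls at 6 weeks, 1 at 12 weeks and 3 in the mean. The median at 6 weeks was -0.032 after quantile normalization and -0.052 with slide as a fixed block. With that block it was -0.010 in the mean of both ages, -0.13 with age in wild type and 0.11 for the change between ages, which was 0.092 after quantile normalization. The cause of these shifts was not tested.

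Leaving out 1 array gave 1 to 2 calls at 6 weeks, 0 to 5 at 12 weeks, 1 to 10 in the mean, 2 to 6 with age in wild type, 0 in each case with age in knockout and 3 to 7 for the change between ages. Cox8b at 6 weeks ran from -1.52 to 0.18, reversed only without wild-type replicate 2. The counts of 10, 6 and 7 came without wild-type replicate 3 at 12 weeks.  With 3 arrays a group, the number of arrays limits the precision, and Cox8b was well above background on 8 of 12 arrays.

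For the lists, slide and replicate number were chosen as alternatives after seeing the data. With slide as a fixed block the calls at 6 weeks were 1 against 4 for complex III, cytochrome c and ATP synthase, 1 against 4 for complex IV assembly, 1 against 3 for coenzyme Q, and 0 against 1 for mitochondrially encoded subunits, 8 for regulators, 3 for the tricarboxylic acid cycle, 1 for carriers and 17 for the ribosome, with 0, 8, 3, 2 and 4 at an unadjusted limma p under 0.05. At 12 weeks that block gave 0 against 1 for complex I and II assembly and for coenzyme Q (5 and 4 unadjusted), 2 against 4 for regulators, 1 against 2 for the cycle and 4 against 7 for the ribosome, and within slide 2 these were 0, 0, 1, 1 and 1. The change between ages moved to 4 from 7 for regulators, 1 from 0 for the cycle, 2 from 0 for carriers and 2 from 4 for the ribosome. The replicate block gave 1 against 0 for complex I and II assembly, 0 against 1 for mitochondrially encoded subunits and 10 against 17 for the ribosome at 6 weeks. At 12 weeks it gave 2 for regulators, 1 for the cycle, 0 for coenzyme Q and 4 for the ribosome, and for the change between ages 1 for complex I and II assembly and 2 for the ribosome.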
